A study of Mus musculus with 6 samples.

Results

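The genes of 4 transcription factors that hold mouse embryonic stem cells (mESCs) in the pluripotent state, Pou5f1, Sox2, Nanog and Sall4, were examined for chromatin accessibility in untreated mESCs. They were chosen by name, with earlier results of these data known. They are 4 of the 21774 protein-coding genes with a RefSeq transcription start site (TSS) on GRCm38, the assembly that mm10 names. Peaks were taken within 1 kb of any RefSeq TSS of each gene and in the gene span with 50 kb added on each side, called its window below. The 4 windows held 36 of the 41014 peaks in the list, and no peak was shared between windows (0 peaks).

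Accessibility was measured by ATAC-seq, where Tn5 transposase inserts sequencing adapters into open DNA, in 2 untreated replicates of V6.5, a hybrid mouse embryonic stem cell line. The treatment text that all 6 samples of the series share describes degron cells given 1 μg/ml doxycycline for 24 h, so the labels of these 2 samples conflict, and they were taken as untreated V6.5 cells from their titles, source and treatment fields. These cells were grown on irradiated mouse embryonic fibroblasts with leukaemia inhibitory factor (LIF), 50000 cells entered each library, and fragments of mono- and dinucleosome size were selected. The study's culture methods differ, as they list CHIR99021 and PD0325901 beside LIF for mESCs and name no feeder cells. Which of these descriptions holds for the samples used is not known. For this condition 1 list of peaks was deposited that covers both replicates, so neither the spread between replicates nor the depth behind a value is known, no value below has an error, and no test between groups was possible. ATAC-seq of ZBTB21-degron mESCs at 0 h and 6 h (4 samples) was not analysed here. Each peak has a score, a whole number from 540 to 953 with a median of 696, which ranks peaks within the list and is neither a read count nor a measure of how open the DNA was.

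OCT4 (the product of Pou5f1), SOX2 and NANOG bind each other's genes and many others in embryonic stem cells, and OCT4 and SOX2 often bind side by side on a composite DNA element. SALL4, a zinc finger protein, binds AT-rich DNA and is needed for the early embryo and for stable self-renewal. Enhancers are known upstream of Pou5f1, upstream of Nanog, and both close to and far downstream of Sox2 in these cells.

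Of the 4 genes, 3 (Pou5f1, Nanog and Sall4) had a peak within 1 kb of a TSS, and Sox2 had none. Over all protein-coding genes the share with such a peak was 29.9%. The 3 genes had 5 such peaks together, with scores of 861 and 830 at Pou5f1, 805 at Nanog, and 820 and 667 at Sall4. All but the last scored above 86.8% of the list or more.

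The first sequences shown, 1 from Pou5f1 and 1 from Nanog, were chosen because they hold a composite SOX-POU element in the peak. They give bases of the GRCm38 reference, 5′ to 3′, around the peak midpoint at Pou5f1 and up to the base before the first TSS at Nanog. V6.5 cells can differ from them. Capitals mark a match on either strand to the SOX-POU pair (CNTTGT with ATGC starting 1 base after it), to ATGCAAAT (the POU octamer), to AAGGTCA (a site of ESRRB) or to CCACACCC (a KLF site). In the first sequence the capitals are a KLF match and then the pair, and in the second the pair. Both pairs read on the reverse strand.
Pou5f1, peak 1.96 kb upstream of the TSS, chr17:35503920-35504219, plus strand: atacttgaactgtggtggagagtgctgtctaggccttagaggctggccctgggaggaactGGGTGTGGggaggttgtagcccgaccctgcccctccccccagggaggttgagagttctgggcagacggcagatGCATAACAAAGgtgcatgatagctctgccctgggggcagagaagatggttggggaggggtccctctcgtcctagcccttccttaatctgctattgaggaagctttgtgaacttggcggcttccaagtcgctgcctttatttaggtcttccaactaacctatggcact
Nanog, peak over the TSS, chr6:122707189-122707488, plus strand: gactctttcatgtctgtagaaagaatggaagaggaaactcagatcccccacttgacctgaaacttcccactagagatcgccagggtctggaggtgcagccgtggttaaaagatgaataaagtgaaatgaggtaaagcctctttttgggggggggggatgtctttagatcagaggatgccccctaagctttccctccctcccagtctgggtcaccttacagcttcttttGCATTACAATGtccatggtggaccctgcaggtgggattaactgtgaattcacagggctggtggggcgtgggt

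The pair at Pou5f1 lies at chr17:35504053-35504063 and reads CTTTGTTATGC in its own direction. At Nanog it lies at chr6:122707417-122707427 and reads CATTGTAATGC. The pair was found in the 300 bp around the midpoint of 3 of the 36 peaks (8.33%), and in 243 of the 41000 peaks on chromosomes 1 to 19, X and Y (0.593%). Its form was taken from the known element of OCT4 and SOX2, which is known at these genes, so the matches at Pou5f1 and Nanog are a description and not an independent observation. The third match lay in the Sall4 window, in an intron of the neighbouring gene Atp9a, at chr2:168702428-168702438, and reads CGTTGTCATGC. That peak had a score of 602, higher than only 18.2% of the list, whereas the peaks with the pair at Pou5f1 and Nanog scored 906 and 805. Over the 243 peaks with the pair the median score was 710, and 15 of them (6.17%) lay within 1 kb of a TSS.

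**Figure D1:**
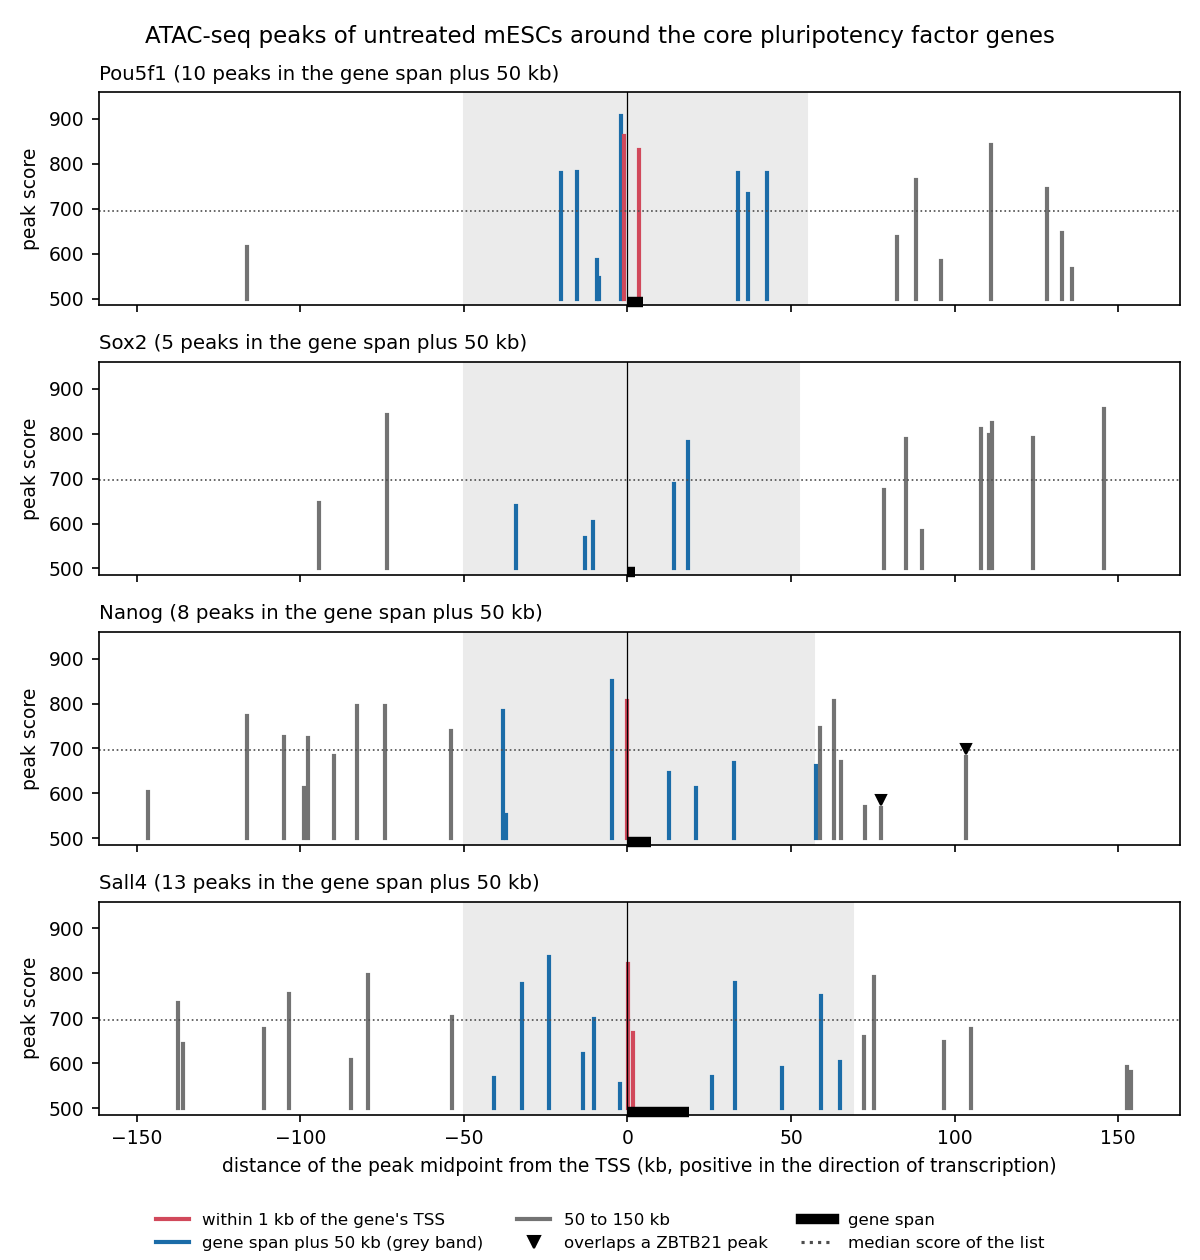
ATAC-seq peaks from 150 kb before to 150 kb after each gene, drawn at the distance of their midpoint from the most upstream TSS (kb, positive in the direction of transcription), with line height as the peak score on an axis that starts near 500. The highest peaks of Pou5f1, Nanog and Sall4 in the grey 50 kb windows score 906, 850 and 837, whereas Sox2 has no peak within 10 kb of its TSS, and the only ZBTB21 peaks met by an ATAC-seq peak (triangles) lie downstream of Nanog.

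Pou5f1, which encodes the POU factor OCT4, spans chr17:35506032-35510777 on the plus strand and has 2 TSSs in RefSeq, at 35506032 and 35508807. Its window held 10 peaks, more than in 92.0% of genes, where the median was 4. Per 100 kb of window this was 9.55 peaks, against a median of 2.59 over genes. The highest score, 906, belonged to the peak 1.96 kb upstream (chr17:35503754-35504387, 634 bp), which lies in an intron of the predicted gene Gm32362 and scored above 98.8% of the list. A separate peak of 993 bp followed at chr17:35504544-35505536, with a score of 861, and ended 0.5 kb before the first TSS. The TSS itself was not inside a peak. The third, at chr17:35509257-35510045 (789 bp), had a score of 830, and its midpoint lies in an intron of Pou5f1, 3.62 kb downstream of the first TSS. It counts as a promoter peak only through the second TSS, that of a shorter transcript, which lies 0.45 kb before the peak. Between the peaks on either side of the first TSS, 3.7 kb held none.

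The 3 highest peaks of the Pou5f1 window were thus its 3 nearest to the gene. Farther upstream, peaks 20.17 and 15.46 kb before the TSS scored 779 and 782. Between them and the gene lay the 2 lowest peaks of the window, at 9.29 and 8.78 kb, with scores of 586 and 545. Repeats cover the first of these wholly and 65.8% of the second, compared with a median of 10.9% over the list, and the part of read mapping in their scores was not tested. On the downstream side, peaks at 33.67, 36.98 and 42.78 kb scored 779, 732 and 779. The middle one lies at a TSS of Cdsn, which encodes corneodesmosin, an adhesion protein of the outer skin. The only match to the POU octamer in the 4 windows was in the peak at 33.67 kb, and AAGGTCA, the site that ESRRB and related nuclear receptors bind, was found in the peaks 20.17 and 8.78 kb upstream. In all, 8 of the 10 peaks scored above the median of the list, and their median was 779.

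Nanog, which encodes a homeodomain factor, spans chr6:122707489-122714633 on the plus strand and has 2 close TSSs, at 122707489 and 122707565. A peak of 425 bp at chr6:122707170-122707594 covers both and had a score of 805, above 86.8% of the list. It is narrower than most, since only 25.9% of the peaks in the list are narrower still. A higher score, 850, was found 4.73 kb upstream at chr6:122702272-122703253, in a peak of 982 bp. This peak lies between genes, and repeats cover 26.3% of it. It is shown because it was the highest of the window, and none of the 4 patterns is matched in the 300 bp around its midpoint, so it has no capitals.
Nanog, peak 4.73 kb upstream of the TSS, chr6:122702612-122702911, plus strand: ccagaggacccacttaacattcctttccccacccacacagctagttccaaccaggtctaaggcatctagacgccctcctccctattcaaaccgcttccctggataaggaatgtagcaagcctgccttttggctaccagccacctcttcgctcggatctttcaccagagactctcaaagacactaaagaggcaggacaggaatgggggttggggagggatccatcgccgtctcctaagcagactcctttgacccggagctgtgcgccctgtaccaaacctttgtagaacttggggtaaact

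The Nanog window held 8 peaks, more than in 83.2% of genes, or 7.47 per 100 kb. Next to the TSS peak and the one at 4.73 kb, only 1 more scored above the median of the list, a peak 37.85 kb upstream with 784. Its neighbour at 37.16 kb had 551, the lowest of the window. On the other side of the gene, 4 peaks at 12.69, 20.9, 32.68 and 57.46 kb had scores of 645, 611, 668 and 662. The last 3 of these lie in Slc2a3, which encodes the glucose transporter GLUT3, and no TSS of Slc2a3 within the window had a peak (0 peaks). The last of them was the widest peak of the 4 windows, at 1034 bp, and met the window only with its near edge. The 2 highest-scored peaks of the window thus lay within 5 kb of the TSS, and the median score was 665.

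Sall4, the largest of the 4 genes, spans chr2:168748332-168767201 on the minus strand. Curated transcripts start at 168767201, and a predicted one starts at 168765526. The peak over the curated TSS (chr2:168766703-168767379, 677 bp) had a score of 820, above 90.3% of the list. It was richer in CpG than the promoter peaks of the other genes, with 7.39 CpG per 100 bp and a GC content of 61.9%. The peak over the Nanog TSS had 1.41 CpG per 100 bp. The Pou5f1 peak that ends 0.5 kb before the first TSS, and so does not cover it, had 1.11. The median over all peaks near a TSS was 4.42 CpG per 100 bp. A second peak at chr2:168765025-168765789 (765 bp) covers the predicted TSS and had a score of 667, lower than the median of the list. The sequences of both are shown to contrast them with Pou5f1 and Nanog. The first runs from the start codon into the first intron and has no match to the 4 patterns, and the second has AAGGTCA once on each strand. Both stretches were moved off the peak midpoint to leave out untranslated bases, and the second is shorter than 300 bases. Its 2 matches lie outside the 300 bp around the midpoint in which the patterns were counted, so they do not enter the counts given here.
Sall4, peak over the curated TSS, chr2:168766730-168767029, minus strand: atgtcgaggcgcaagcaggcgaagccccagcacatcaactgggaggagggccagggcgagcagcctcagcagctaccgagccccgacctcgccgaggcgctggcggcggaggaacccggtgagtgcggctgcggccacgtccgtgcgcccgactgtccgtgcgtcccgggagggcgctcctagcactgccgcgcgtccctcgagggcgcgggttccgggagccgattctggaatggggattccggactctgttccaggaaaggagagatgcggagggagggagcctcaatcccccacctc
Sall4, peak over the predicted TSS, chr2:168765527-168765789, minus strand: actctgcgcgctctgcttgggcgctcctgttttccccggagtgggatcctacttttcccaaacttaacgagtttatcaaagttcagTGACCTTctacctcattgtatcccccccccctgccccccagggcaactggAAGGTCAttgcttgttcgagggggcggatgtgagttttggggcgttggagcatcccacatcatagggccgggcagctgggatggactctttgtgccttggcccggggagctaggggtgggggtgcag

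The Sall4 window held 13 peaks, the most of the 4 and more than in 97.7% of genes. Per 100 kb there were 10.9, more than in 99.2% of genes. The highest score, 837, was not at the gene but 24.09 kb upstream, in an intergenic peak of 830 bp at chr2:168790879-168791708. Another intergenic peak 32.05 kb upstream had 776. The other upstream peaks, at 2.19, 10.14, 13.58 and 40.66 kb, had scores of 554, 699, 620 and 567. The remaining 5 lay downstream in Atp9a, which encodes a phospholipid flippase, from 25.76 to 64.9 kb past the Sall4 TSS. The highest-scored of them, with 778, and the one at 25.76 kb, with 570, each lie within 1 kb of an Atp9a TSS. The latter has the highest GC content of the 36 peaks, 68.4%. Peaks at 59.24 and 47.17 kb had 749 and 589. In this window 6 of 13 peaks scored above the median of the list.

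Sox2, which encodes an HMG-box factor, is a gene of 1 exon that spans chr3:34649995-34652461 on the plus strand, inside the long non-coding gene Sox2ot. Its single TSS had no peak within 1 kb (0 peaks), nor within 2.5 kb. The nearest peak lay 10 kb away, and 51.0% of protein-coding genes had their nearest peak farther from their most upstream TSS (median 10.5 kb). A gene with a peak only at another of its TSSs can count as far here, and Sox2 has a single TSS. Around the gene, 23.9 kb held no peak of the list. This does not show that the promoter was closed, because only peaks that entered the list are known. The window held 5 peaks, more than in 59.3% of genes, with a median score of 638.

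All 5 peaks of the Sox2 window lie in introns of Sox2ot. Upstream they stood at 34.24, 12.88 and 10.42 kb, with scores of 638, 568 and 604. The nearest of these lies within 1 kb of the TSS of the microRNA gene Mir1897. Downstream there were 2, at 14.27 kb (chr3:34663855-34664672, score 687) and at 18.63 kb (chr3:34668445-34668801, score 781). The former is CpG-rich for a peak away from a TSS, with 6.48 CpG per 100 bp against a median of 1.42. Only the latter scored above the median of the list. It is shown as the highest peak of the window, and it holds no match to the 4 patterns.
Sox2, peak 18.63 kb downstream of the TSS, chr3:34668473-34668772, plus strand: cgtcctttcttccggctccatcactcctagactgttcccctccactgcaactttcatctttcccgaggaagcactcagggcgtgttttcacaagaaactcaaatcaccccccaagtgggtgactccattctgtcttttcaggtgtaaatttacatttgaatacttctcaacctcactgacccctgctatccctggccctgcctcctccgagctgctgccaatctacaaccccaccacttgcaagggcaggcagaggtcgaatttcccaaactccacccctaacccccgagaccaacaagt

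With 150 kb on each side instead of 50 kb, Sox2 had 15 peaks instead of 5, and 8 of them scored above the median of the list instead of 1. A group of 3 peaks lay between 108.0 and 111.3 kb downstream, at chr3:34757739-34758158, chr3:34760001-34760787 and chr3:34761061-34761619, with scores of 810, 796 and 823. Beyond them, peaks at 124.1 and 145.7 kb had 790 and 856, and upstream a peak at 73.6 kb had 841. All 6, and a peak at 85.1 kb downstream with 789, scored higher than any peak of the 50 kb window. Even so, the count of 15 was higher than in only 74.0% of genes, whose median was 9. At the same width Pou5f1 had 18 peaks, Nanog 23 and Sall4 26, more than in 84.2%, 95.1% and 97.9% of genes.

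**Figure D2:**
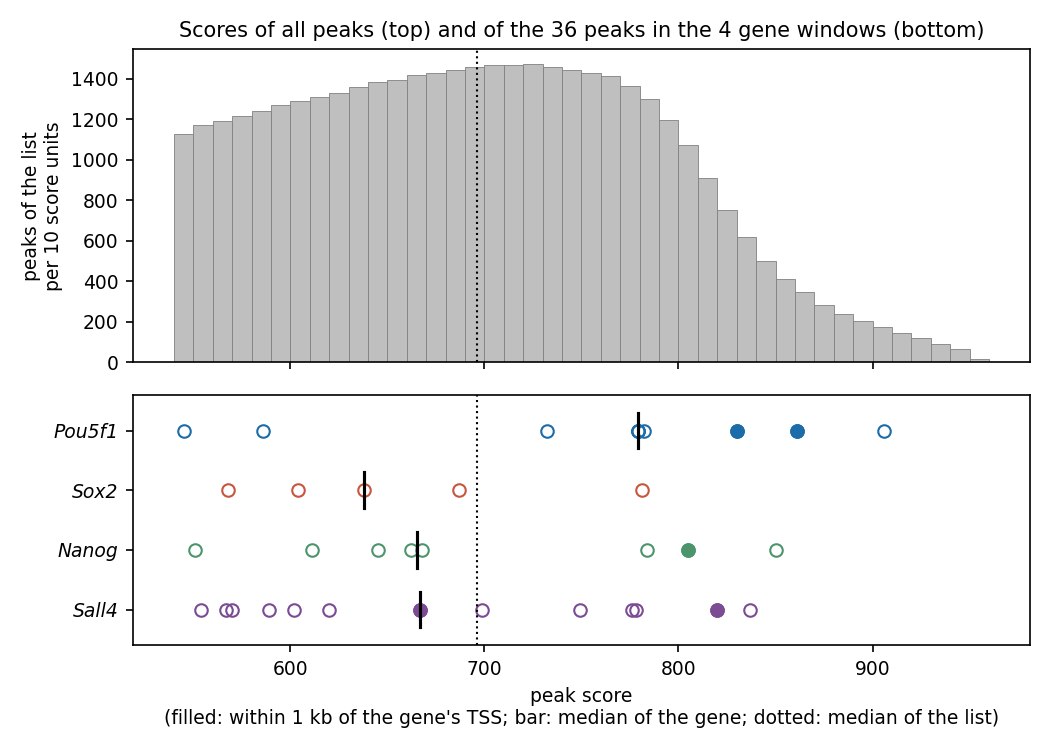
Scores of all 41014 peaks in bins of 10 units (top) and of the 36 peaks in the 4 windows (bottom, 1 circle per peak, filled within 1 kb of a TSS of the gene, black bar for the median of the gene, dotted line for the list median of 696). The Pou5f1 median is 779 and those of Sall4, Nanog and Sox2 are 667, 665 and 638, below the dotted line.

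Taken as a set, the 36 peaks resembled the list. Their median score was 693 against 696, their median width 558.5 against 547 bp, and their GC content 52.6% against 52.1%. Exactly 18 (50%) scored above the median of the list. Within 1 kb of any RefSeq TSS lay 9 of them (25%), where the share over the list was 20.2%.

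The scores were not spread evenly with distance. The 8 peaks with a midpoint under 5 kb from the TSS of their gene had a median score of 825, from 554 to 906, and 6 of them scored above the list median. For the 8136 peaks within 5 kb of any protein-coding TSS the median was 720, and 57.8% scored above the list median. From 5 to 25 kb the 13 peaks had a median of 645 (694 over the list), and from 25 kb on the 15 peaks had 668 (688 over the list). Over the list the distance is to any protein-coding TSS, so the classes are not like for like. Window peaks at TSSs of Cdsn and Atp9a, for example, count here as 25 kb or more away. These distance classes were set after the peaks had been seen, and Sox2 has no peak in the nearest one.

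**Figure D3:**
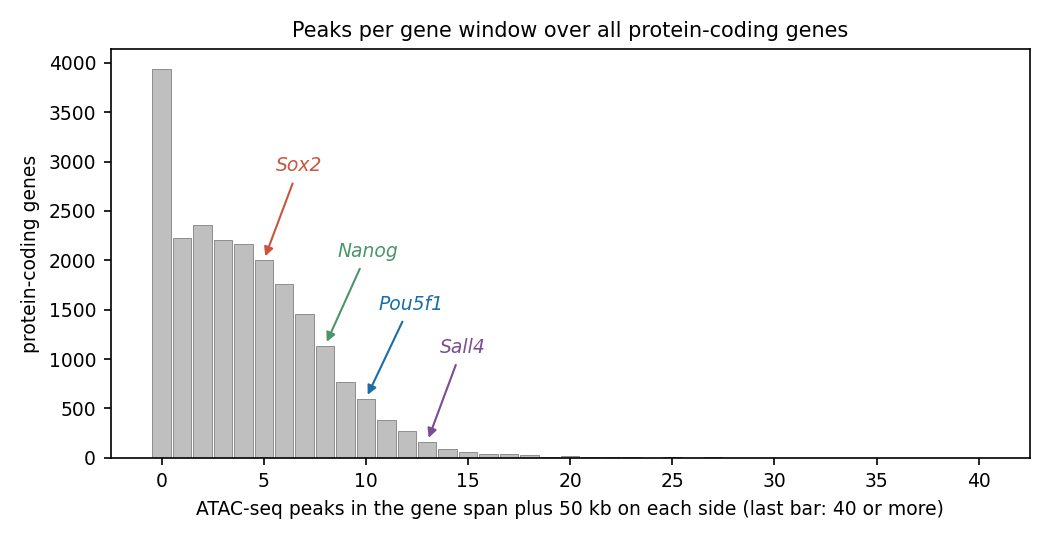
Number of protein-coding genes (y axis) by the number of ATAC-seq peaks in the gene span plus 50 kb on each side (x axis, last bar 40 or more). At this flank Sall4 with 13 peaks, Pou5f1 with 10 and Nanog with 8 stand in the upper tail, and Sox2 with 5 stands next to the median of 4. With 25 kb instead, Nanog and Sox2 have 4 peaks each.

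ZBTB21, a zinc finger and BTB domain protein, was mapped in the same study by ChIP-seq in mESCs that carry a tagged ZBTB21. None of the 36 peaks overlapped 1 of its 1827 peaks (0 of 36). Such a count would allow a share of up to 8.33% if the peaks were independent draws, but they lie together in 4 windows. Over the list 1.98% of peaks did, a share at which 0.714 of 36 would be met, so a count of 0 does not set these genes apart. A ZBTB21-overlapping peak in the window was present for 11.6% of protein-coding genes and for 0 of the 4.

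The nearest ZBTB21 peak lay 76.3 kb from the Nanog TSS, 121.4 kb from that of Pou5f1, 187.9 kb from that of Sall4 and 849.6 kb from that of Sox2. Of all protein-coding genes, 24.1%, 31.6%, 40% and 72.3% had one nearer. Sox2 thus stood farther from ZBTB21 than most genes, and the other 3 did not. Downstream of Nanog, 2 ATAC-seq peaks at 77.6 and 103.6 kb overlapped a ZBTB21 peak, with scores of 568 and 680, both lower than the list median. The ZBTB21 peak nearest to Pou5f1 met no ATAC-seq peak (0 peaks), and that nearest to Sall4, close to the TSS of the zinc finger gene Zfp64, met one with a score of 671.

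The study's 500 ZBTB21-responsive and 500 less-responsive chromatin loops, with anchors of 25 kb, were compared with the 4 genes. The study chose both classes among loops above 500 kb. Responsive loops had to hold ZBTB21 peaks and cohesin peaks that fell after ZBTB21 degradation, and less-responsive loops had neither. The classes are thus not a measured change of the loops, and the counts below are not independent of the ZBTB21 peaks above. The TSS of none lay in a loop of either class (0 of 4 in both), counted between the outer edges of the anchors. For all protein-coding genes the shares were 15.2% in responsive and 5.68% in less-responsive loops. No window touched such a loop either (0 of 4). The nearest responsive loop lay 92.5 kb from the Nanog TSS, 131.0 kb from that of Pou5f1, 207.8 kb from that of Sall4 and 2150 kb from that of Sox2. Loops outside these lists were not analysed here.

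The genes that work with the 4 factors were read in the same way. Of 10 factors of naive pluripotency, 5 (50%) had a peak within 1 kb of a TSS, namely Tbx3, Prdm14, Nr5a2, Zfp42 and Nr0b1, and Klf2, Klf4, Klf5, Esrrb and Tfcp2l1 had none. The highest scores were 909 at Tbx3, a T-box repressor, and 892 at Zfp42, which encodes REX1. Esrrb, an orphan nuclear receptor gene, had its nearest peak 24.8 kb from the most upstream TSS and 18 peaks in its window. Klf4, which encodes a zinc finger factor used in reprogramming, held 1 peak, 31.1 kb away. The median over the 10 was 7 peaks per window, against 9 for the 4 core genes and 4 over all genes.

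Of 15 partners and targets of the core factors, 7 (46.7%) had a promoter peak. Nacc1, Tcf7l1, Rif1, Trim28, Dppa5a and Lefty1 were among them, with scores from 546 at Nacc1 to 819 at Rif1. Fgf4 and Utf1, both known targets of OCT4 and SOX2, had none within 1 kb, and the peaks nearest to their most upstream TSSs lay 2.93 and 1.53 kb away. The median was 7 peaks per window. Among 8 paralogs of the 4 genes, Sox1 and Sox15 (25%) had a promoter peak, with scores of 785 and 729, and the median was 6.5 peaks per window. None of Sall1, Sall2 and Sall3 had one.

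Marker genes were used to check the cell type. Of 8 embryonic stem cell markers, which include the 4 genes, 4 (50%) had a promoter peak. Outside the 4 genes only Zfp42 had one, and Esrrb, Tdgf1 and Fgf4 had none. The 50% thus rests mostly on the genes studied here and is no separate check of the cell type. Of 15 markers of the feeder fibroblasts, 3 (20%) had one, with scores of 829 at Thy1, 687 at Pdgfra and 602 at Pdgfrb. The fibroblast genes Postn, Twist1, Twist2, Prrx1, Lum, Dcn and Snai2 had no peak in their windows at all (0 peaks). Over all protein-coding genes, 3941 of 21774 had none. Col1a1 had the most of the 15 markers, with 7 peaks, and the median was 1 peak per window against 4 over all genes. Of 13 markers of differentiated lineages, 2 (15.4%) had a promoter peak, Pax6 among them, with a median of 3 peaks per window. A small share of feeder DNA cannot be told from these counts, and its part in the peaks described was not tested. A ZBTB21-overlapping peak lay in the windows of 1 naive factor, 3 partners and targets, 1 paralog, 1 feeder marker and 0 lineage markers. These are few genes, and over all protein-coding genes the share was 11.6%.

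**Figure D4:**
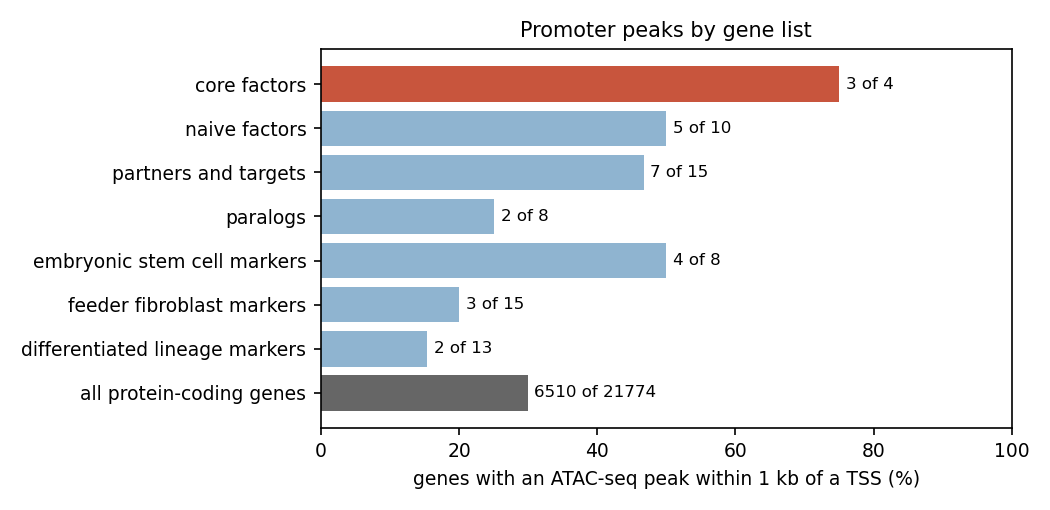
Share of the genes of each list that had a promoter peak, 1 kb or less from a TSS (x axis, %), with the counts beside the bars. The core factors stand at 3 of 4 and all protein-coding genes at 29.9%, with feeder fibroblast and lineage markers lower at 20% and 15.4%; the embryonic stem cell marker list includes the 4 core genes.

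Other short patterns were searched on both strands in the same 300 bp. The SOX part of the pair alone, CNTTGT, which every pair match contains, was found in 20 of the 36 peaks (55.6%) and in 50.9% of the list. It occurred in 7 peaks of Pou5f1, 7 of Sall4, 5 of Nanog and 1 of Sox2. The octamer ATGCAAAT was in 1 (2.78%, 2.85% of the list) and AAGGTCA in 3 (8.33%, 7.47% of the list), 2 of Pou5f1 and 1 of Sall4. CCACACCC, which KLF factors bind, was in 2 (5.56%), 1 of Pou5f1 and 1 of Sox2, against 7.62% of the list. CACGTG, the E-box, was in 2 (5.56%), the same share as in the list.

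Larger gaps were seen for a pair of further patterns, in opposite directions. AGGGGGC, a part of the site that CTCF binds, was in 8 peaks (22.2%, 10.9% of the list), 3 of Nanog, 2 each of Pou5f1 and Sall4 and 1 of Sox2. In the 46 peaks between the window edges and 150 kb it was in 6 (13.0%). TGANTCA, which AP-1 binds, was in 1 (2.78%, 11.3% of the list), the intronic Pou5f1 peak. With 36 peaks these shares rest on few matches, and a match says nothing about binding.

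**Figure D5:**
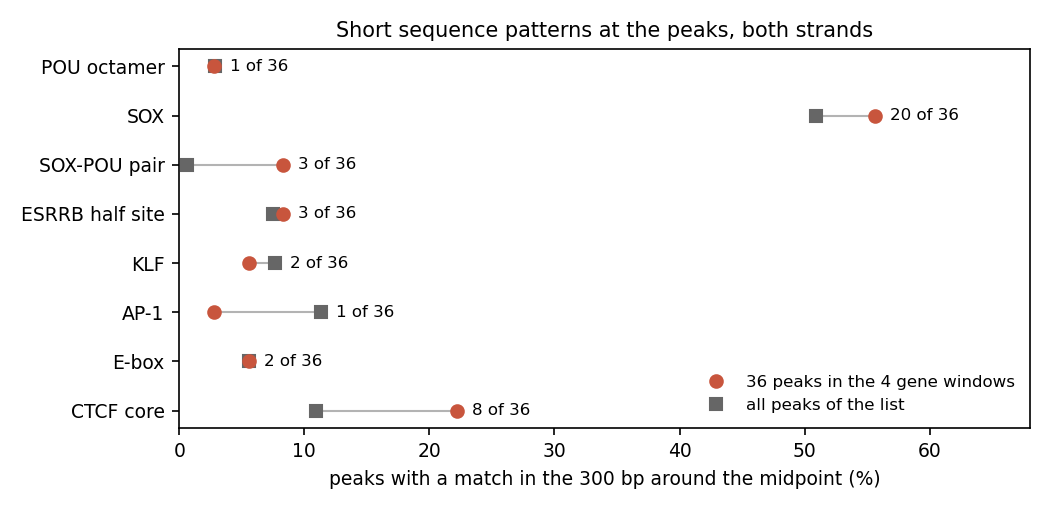
Share of peaks with a match to each pattern in the 300 bp around the midpoint (x axis, %), for the 36 peaks of the 4 windows (circles, counts beside them) and all peaks on chromosomes 1 to 19, X and Y (squares). The pair stands at 8.33% against 0.593%, the CTCF part at 22.2% against 10.9% and AP-1 at 2.78% against 11.3%.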

How the data were processed

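The sources name ATAC-seq of 6 mESC samples, of which the 2 untreated replicates are behind the 1 peak list used. In this list the authors deposited coordinates on mm10 with a score per peak, and strand is given for 0 peaks. The steps of ATAC-seq peak calling, including a shift for Tn5, are not given in the sources used here. The submitters' processing notes name cutadapt 2.6, Bowtie2 2.3.5.1 and MACS2 2.1.1 without roles. The smallest score, 540, is what the IDR software writes for an IDR of 0.05, and the score was read as such from its values alone. Library depth is unknown.

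RefSeq annotation of GRCm38 gave 79130 TSS positions, predicted transcripts included. Overlaps needed 1 bp. Unless another TSS is named, distances of a gene to a peak, ZBTB21 peak or loop used its most upstream TSS. Counts of genes in loops used that TSS too. ZBTB21 peaks and loops came from the study's supplementary lists, and the authors' own comparisons were not used. All 65 list genes matched a symbol (0 without). Some of them are counted but not reported by name here. Sequences are those of the RefSeq genome. The members and lists were chosen with earlier results of these data known, and each gene is named with its promoter peaks and its 3 highest peaks, other genes from the lists or where a window peak lies at their TSS. Slc2a3 and the intervals to 150 kb were named after their values were seen. Counting was tested on 2000 simulated queries (0 differed from a direct count). Alternatives were the TSS distance, curated TSSs, flank, score, merging, overlap rule and loop part. Python 3.11.15, numpy 2.4.6, pandas 2.3.3 and matplotlib 3.10.9 were used.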

Additional observations from a re-analysis of the deposited data

How the results depend on the processing

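Of 22 values under alternatives, 17 stayed within 1.5 times the value reported. The exceptions concern the peaks in the 4 windows, which numbered 36 with 50 kb on each side, 23 with 25 kb, 63 with 100 kb and 82 with 150 kb, and 18 when only scores above the list median were kept. Single genes moved in rank with the flank too. Nanog and Sox2 each had 4 peaks with 25 kb, more than in 69.5% of genes. At 100 kb the counts of Nanog, Sall4, Pou5f1 and Sox2 were higher than in 98.1%, 98.1%, 83.7% and 69.2% of genes. With 100 kb on each side, 2 peaks overlapped a ZBTB21 peak instead of 0, both at Nanog. The other ZBTB21 counts and all loop counts stayed at 0, to which a ratio does not apply, and they are among the 17. Loop counts on anchors or inner spans are parts of a count that was already 0, so they could not move. The same holds for ZBTB21 counts that needed an overlap of 50% of the shorter peak or a score above the list median. The 5 promoter peaks became 7 at 2.5 kb from a TSS, 4 with curated TSSs and 4 with scores above the median, and 3 of 4 genes had one in each case. No paired analysis was possible because the list holds both untreated replicates together, and for the same reason no replicate could be left out. The unknown depth limits every absence of a peak.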

Other observations

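Beyond the 50 kb windows, up to 150 kb, 46 further peaks lay around the 4 genes, and the SOX-POU pair was in none of them (0 of 46). As only 0.593% of the list has the pair, a count of 0 does not set these peaks apart. AAGGTCA was in 6 of the 46 (13.0%, 7.47% of the list) and CCACACCC in 7 (15.2%, 7.62% of the list), which are few matches. Upstream of Nanog, peaks at 97.6 and 99.0 kb lie in Gdf3, which encodes a TGF-beta family ligand of the early embryo, and had scores of 724 and 612. These intervals and the genes named in them were chosen after the values had been seen.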
